A study of Mus musculus with 42 samples.

Results

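The 35 genes described here carry out glycolysis or belong to the response to low oxygen. They were chosen as a list, with the regulators Hif1a and Epas1, and followed across all 34 bulk RNA-Seq libraries of mouse uterine tissue-resident NK (trNK) cells and the joined single-cell matrix of uterine NK1.1+NKp46+ cells. Each was present among the 54353 genes shared by the bulk files, and 32 of the 35 were in the single-cell matrix. Aldoa, Slc16a3 and Ndrg1 were not analysed in single cells here.

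Glycolysis splits glucose into pyruvate in the cytosol and yields ATP without oxygen, and lactate dehydrogenase turns pyruvate into lactate so that the pathway can go on. Activated lymphocytes, NK cells among them, raise glycolysis to feed growth and effector functions. When oxygen is scarce, the prolyl hydroxylases of the EGLN family no longer mark the alpha subunits HIF-1α (Hif1a) and HIF-2α (Epas1) for ubiquitination by the VHL complex, and the stabilised factors switch on glycolytic enzymes, glucose and lactate transporters and mitophagy receptors. Most of this control acts on the protein, which these data did not measure.

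The bulk libraries formed 17 groups of 2 libraries in 4 experiments, which were fitted apart. The first held trNK cells of wild-type C57BL/6 females (age 8–12 weeks by the methods), either virgin or at gestational day (gd) 6.5 or 8.5, sorted as CD45+NK1.1+NKp46+CD49a+CXCR6- cells. The second held gd8.5 trNK cells of wild-type mice, divided by CD55 and 4-1BB into trNK-V (both low), trNK-D (both intermediate) and trNK-T (both high). For the third, trNK cells of wild-type C57BL/6 mice (trNK-V cells of gd6.5 in the study's account) were cultured for 3 days without IL-21, with 20 ng/mL IL-21, or with IL-21 and Stattic (1 µM by the labels, another unit in the methods), an inhibitor of the transcription factor STAT3, and were sorted as live NK1.1+ cells. The fourth was a time course of wild-type trNK cells, isolated at gd6.5 (trNK-V cells, again in the study's account) and held in 10 ng/mL IL-15 (another field of the labels gives a higher dose), at 0, 6, 24 and 72 h with or without 20 ng/mL IL-21, which was made with another cDNA kit than the rest. How cells of the 0 h group with IL-21 met the cytokine is not stated in the sources used here. The methods give 10 ng/mL IL-15 for the medium of the culture with Stattic too. The single cells were uterine CD45+NK1.1+NKp46+ cells of wild-type virgin and gd8.5 C57BL/6 mice mixed into 1 run.

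Libraries held 11862089 to 66468883 counts. The 4 NK markers Ncr1, Klrb1c, Eomes and Itga1 had counts in all 34 libraries. Both virgin libraries differed widely, with a summed level of 8 activation and effector genes (Tnfrsf9, Cd55, Klrg1, Il2ra, Prdm1, Gzmb, Prf1 and Spp1) of 1122 RPKM (reads scaled to exon length and library size) in replicate 1 and 16933 in replicate 2, against 14013 to 20472 in the 4 undivided libraries of gd6.5 and gd8.5. In trNK-D replicate 2 the plasma cell genes Jchain, Mzb1, Igkc and Iglc2 summed to 22854 RPKM, against at most 36.9 in any other library. Counts of called members in comparisons that use these libraries are given below with and without them. Calls of genes of neighbouring pathways are given with them only. The labels do not say that libraries of a group came from separate animals or cultures, so p-values measure only the spread between these libraries, which may be technical.

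The factors that answer to low oxygen bind short DNA elements, and the promoters of the members that the results below turn on are shown first. RefSeq windows on GRCm38.p6 were found for 31 members, and none was found for Epas1, Slc2a3, Bnip3l and Ndrg1. The 250 bases before the first listed start were searched on both strands for the HIF-type cores ACGTG and GCGTG, and for the STAT-type motif TTCNNNGAA. A CACGTG match counts once on each strand. Lower case marks the sequence, capitals mark the core matches, and CACGT or CACGC in capitals is a core on the opposite strand. The stretches are those of Hif1a at chr12:73907617-73907866 on the plus strand, Aldoa at chr7:126800448-126800697 on the minus strand, Tpi1 at chr6:124814159-124814408 on the minus strand, Gapdh at chr6:125165774-125166023 on the minus strand, Pgk1 at chrX:106186850-106187099 on the plus strand, Pgam1 at chr19:41911621-41911870 on the plus strand, Eno1 at chr4:150236458-150236707 on the plus strand, Ldha at chr7:46845554-46845803 on the plus strand and P4ha1 at chr10:59323046-59323295 on the plus strand. Hif1a is shown as the regulator, the next 7 as the enzymes that were called higher in trNK-T, and P4ha1 as the member that was higher with Stattic.
Hif1a: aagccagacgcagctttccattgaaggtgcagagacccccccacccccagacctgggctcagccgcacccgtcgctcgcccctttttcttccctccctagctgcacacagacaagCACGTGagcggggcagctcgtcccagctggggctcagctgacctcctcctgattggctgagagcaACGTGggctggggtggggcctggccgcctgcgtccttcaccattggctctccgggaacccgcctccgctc
Aldoa: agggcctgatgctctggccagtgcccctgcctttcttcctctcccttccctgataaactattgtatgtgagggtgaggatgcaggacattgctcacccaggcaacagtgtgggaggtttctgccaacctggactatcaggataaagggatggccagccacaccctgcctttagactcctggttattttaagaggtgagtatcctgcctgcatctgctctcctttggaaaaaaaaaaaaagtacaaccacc
Tpi1: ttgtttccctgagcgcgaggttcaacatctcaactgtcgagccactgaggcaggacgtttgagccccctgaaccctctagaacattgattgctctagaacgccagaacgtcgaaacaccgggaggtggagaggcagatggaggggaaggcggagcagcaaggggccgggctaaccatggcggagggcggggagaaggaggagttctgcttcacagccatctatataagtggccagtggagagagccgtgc
Gapdh: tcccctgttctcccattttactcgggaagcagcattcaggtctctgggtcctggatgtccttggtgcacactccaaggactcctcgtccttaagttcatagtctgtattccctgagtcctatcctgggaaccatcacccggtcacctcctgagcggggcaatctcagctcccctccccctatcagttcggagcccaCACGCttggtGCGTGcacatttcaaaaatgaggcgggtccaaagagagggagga
Pgk1: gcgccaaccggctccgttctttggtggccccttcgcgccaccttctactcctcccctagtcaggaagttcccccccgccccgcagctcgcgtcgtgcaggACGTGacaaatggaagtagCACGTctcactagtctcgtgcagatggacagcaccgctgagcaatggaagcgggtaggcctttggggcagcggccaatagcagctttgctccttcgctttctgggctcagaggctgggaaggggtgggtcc
Pgam1: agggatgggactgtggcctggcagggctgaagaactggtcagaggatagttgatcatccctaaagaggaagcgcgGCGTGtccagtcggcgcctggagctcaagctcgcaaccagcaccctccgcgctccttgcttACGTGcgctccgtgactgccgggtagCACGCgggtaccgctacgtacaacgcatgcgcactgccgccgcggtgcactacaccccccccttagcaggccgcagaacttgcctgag
Eno1: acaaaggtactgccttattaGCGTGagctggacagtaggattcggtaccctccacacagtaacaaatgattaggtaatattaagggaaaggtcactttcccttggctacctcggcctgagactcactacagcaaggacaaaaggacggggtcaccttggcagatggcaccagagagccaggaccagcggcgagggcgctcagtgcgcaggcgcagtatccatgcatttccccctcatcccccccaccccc
Ldha: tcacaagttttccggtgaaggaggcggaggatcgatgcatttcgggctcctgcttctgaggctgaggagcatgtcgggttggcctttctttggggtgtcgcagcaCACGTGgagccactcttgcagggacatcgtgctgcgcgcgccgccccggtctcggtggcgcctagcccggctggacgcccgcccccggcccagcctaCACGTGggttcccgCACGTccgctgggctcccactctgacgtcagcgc
P4ha1: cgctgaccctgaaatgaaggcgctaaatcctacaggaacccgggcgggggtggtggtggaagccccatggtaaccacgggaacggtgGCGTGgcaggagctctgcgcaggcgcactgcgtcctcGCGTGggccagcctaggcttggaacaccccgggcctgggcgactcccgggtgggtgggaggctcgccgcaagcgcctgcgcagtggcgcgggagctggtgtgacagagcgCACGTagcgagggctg

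Ldha had 5 core matches, of which 4 form 2 CACGTG palindromes, and the match nearest to the start lay 34 bases before it. Pgk1 had 2 matches 131 and 150 bases before the start. Hif1a had 3, Pgam1 3 and Gapdh 2, both within 54 bases of the start. P4ha1 had 3. Of the other enzymes shown Eno1 had 1, and Aldoa and Tpi1 had 0. One or more of both cores occurred in 24 of 31 members (77.42%) and in 38.6% of all 27025 promoters. The ACGTG core was in 48.39% of the members and 16.57% of all promoters, and the GCGTG core in 54.84% and 28.21%. The members' windows were richer in GC, with a median of 64% against 52%. Among the 7986 promoters whose GC content lay in the middle range of the members', 56.64% held a core, 22.01% ACGTG, 45.37% GCGTG and 5.197% TTCNNNGAA. TTCNNNGAA was in none of the 31 windows and in 7.179% of all promoters. A match is a description of these letters and not a bound site. The windows of Vhl, Hk1, Gpi1, Aldoa, Tpi1, Pkm and Mxi1 held no core, and 9 members have other start sites that were not searched.

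Levels across the libraries were uneven among the members. Enzymes of the second stage of glycolysis and their neighbours dominated: Aldoa, Tpi1, Gapdh, Pgk1, Pgam1, Eno1, Pkm and Ldha together held 82.2% to 92.2% of the members' summed RPKM in the 12 libraries of uncultured cells. Ldha, which makes lactate, was the highest member in each of these 12 libraries, from 292 RPKM in trNK-V replicate 2 to 1039 RPKM in gd6.5 replicate 1. Of the paired isoenzymes, Ldhb was at most 1.00 RPKM in every library. Hk1 and Hk2, the hexokinases that trap glucose in the cell, lay between 0.65 and 14.1 RPKM in uncultured cells. The sensor Egln3 reached at most 1.15 RPKM, while Egln1, the main oxygen sensor, ran from 1.51 to 11.3 RPKM. Pfkfb3 and Pfkfb4, which set the level of the phosphofructokinase activator fructose-2,6-bisphosphate, were at most 1.29 and 1.14 RPKM. The hypoxia targets Mxi1, Ddit4, Ndrg1 and Pdk1, a kinase that holds back pyruvate dehydrogenase, did not pass 4.06 RPKM anywhere. Reads of near-identical copies could be shared with Bnip3l-ps, Eno1b and the Pgk1 and Pgam1 copies, which together held at most 4.28% of the counts of their gene in any library.

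**Figure D1:**
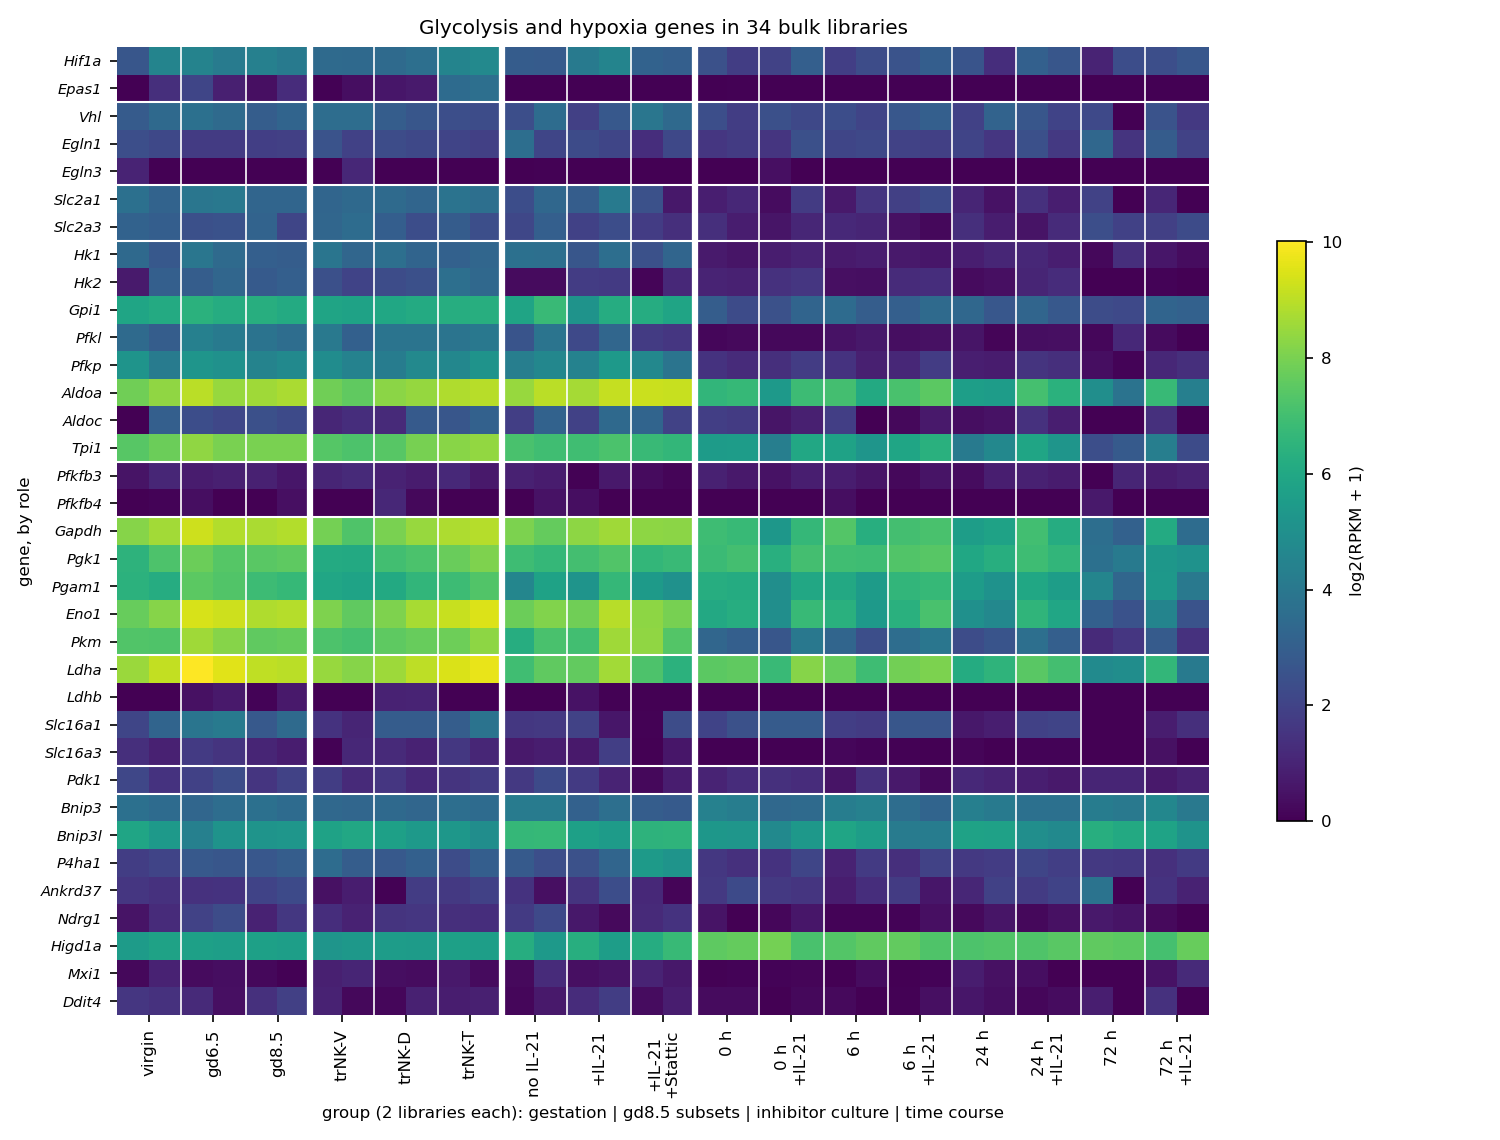
Levels of the 35 members as log2(RPKM + 1) in the 34 bulk libraries, with members ordered by role in rows and 2 adjacent columns per group, from virgin to 72 h with IL-21. Ldha reached 1039 RPKM at gd6.5, whereas Epas1 rose above 4 RPKM in the 2 trNK-T libraries alone and Higd1a was brightest in the time course.

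The comparison of trNK-T with trNK-V asked how the members differ between the ends of the CD55 and 4-1BB gate at gd8.5. Here genes with more than 10 RPKM in both libraries of any group were tested, and calls needed both a fold change over 2 and a p under 0.05 in edgeR's quasi-likelihood test after Benjamini-Hochberg adjustment over all genes tested. This left 18 of the 35 members, of which 9 were called higher and 1 lower in trNK-T, while 21.2% of all 4683 genes tested were called, with 8.05% called higher and 13.1% lower. The median log2 fold change was 0.98 for the 18 members and -0.01 for all genes tested. DESeq2 and limma-voom each called 10 members as well. These counts cover members that passed the expression filter only. Epas1 passed it through trNK-T alone and Vhl through trNK-V alone, so the filter favoured a difference in both and their calls are no separate support. Slc2a1 and Bnip3 passed through trNK-T alone as well and were not called.

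Both HIF alpha subunits were higher in trNK-T. Hif1a was at 10.1 and 9.76 RPKM in the trNK-V libraries, 10.1 and 11.8 in trNK-D, and 22.2 and 25.6 in trNK-T, so that trNK-T stood apart from the other subsets, which nearly met. The log2 fold change of trNK-T against trNK-V was 1.27 (SE 0.186, adjusted p = 0.00541). Epas1 was at 0.0366 and 0.295 RPKM in trNK-V, 0.526 and 0.660 in trNK-D, and 10.3 and 11.6 in trNK-T, with a log2 fold change of 6.05 (SE 0.816, adjusted p = 0.00451). It was the widest difference among the members in this comparison. Against trNK-D, Hif1a and Epas1 were the 2 members called, at log2 1.12 (adjusted p = 0.0456) and 4.20 (adjusted p = 0.0464), where 1.75% of all genes were called. Both of these calls lay near the threshold: without 1 of the trNK-D or trNK-T libraries 0 members were called, and without 1 of the trNK-V libraries, which only share the fit, 1 was called. Epas1 had passed the filter through trNK-T alone, which favours a difference from trNK-D as well.

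Vhl, which encodes the ubiquitin ligase subunit that recognises hydroxylated HIF-α, ran the other way. It measured 10.8 and 11.0 RPKM in trNK-V, 6.82 and 5.36 in trNK-D and 4.36 and 3.97 in trNK-T, without overlap between any subsets. Its log2 fold change in trNK-T was -1.38 (SE 0.305, adjusted p = 0.0170). Egln1 gave 4.90 and 2.85 RPKM in trNK-V and 3.10 and 2.72 in trNK-T, which overlapped, and was below the filter.

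The early steps of glycolysis were divided. Aldoa, the aldolase that splits the 6-carbon sugar, measured 232 and 192 RPKM in trNK-V and 453 and 496 in trNK-T (log2 fold change 1.17, SE 0.171, adjusted p = 0.00541), and Tpi1, which interconverts the 2 triose phosphates, 168 and 148 against 301 and 338 (log2 1.02, SE 0.219, adjusted p = 0.0158). Of the tested members that act before them none was called. The glucose transporter Slc2a1 was at 8.71 and 9.85 RPKM in trNK-V and 12.9 and 11.5 in trNK-T (log2 0.40, adjusted p = 0.254), and the isomerase Gpi1 at 56.5 and 53.6 against 74.0 and 77.1 (log2 0.46, adjusted p = 0.0467), under the fold limit. Pfkl and Pfkp, subunits of the rate-setting phosphofructokinase, had log2 differences of 0.31 and 0.25 that missed the threshold. Slc2a3, a glucose transporter of higher affinity, was at 8.86 and 10.7 RPKM in trNK-V and 6.55 and 4.28 in trNK-T, below the filter. Hk2 was also below the filter, at 4.51 and 3.03 against 11.5 and 9.53 RPKM, and a fit with no filter gave log2 1.67 (adjusted p = 0.0264).

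The 5 enzymes from glyceraldehyde phosphate to pyruvate were each higher in both trNK-T libraries than in both trNK-V libraries, and 4 were called. Pgk1, the first enzyme of the pathway that yields ATP, measured 69.1 and 66.2 RPKM in trNK-V, 125 and 143 in trNK-D and 213 and 273 in trNK-T. No 2 subsets overlapped in Pgk1, and its log2 fold change of 1.85 (SE 0.184, adjusted p = 0.00233) had the smallest adjusted p among the members. Gapdh, which makes NADH in the step before, gave 245 and 153 RPKM in trNK-V and 440 and 485 in trNK-T (log2 1.22, adjusted p = 0.0170). Pgam1, the phosphoglycerate mutase, gave 60.7 and 54.8 against 116 and 156 (log2 1.24, adjusted p = 0.0120), and Eno1, the enolase, 274 and 190 against 579 and 721 (log2 1.49, adjusted p = 0.0113). Pkm, the pyruvate kinase, passed the adjusted p but not the fold limit, at log2 0.94 (adjusted p = 0.0158). Since the reads are counted per gene, the M1 and M2 forms of Pkm were not told apart.

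At the end of the pathway, Ldha gave 354 and 292 RPKM in trNK-V, 372 and 521 in trNK-D and 698 and 822 in trNK-T, with a log2 fold change of 1.24 (SE 0.221, adjusted p = 0.00927). Slc16a1, the lactate carrier MCT1, was below the filter at 1.77 and 1.05 RPKM in trNK-V, 6.64 and 6.58 in trNK-D and 6.84 and 13.2 in trNK-T, and the fit with no filter gave log2 3.03 for trNK-T (adjusted p = 0.0194). The export carrier Slc16a3 was at most 2.05 RPKM in these libraries. Of the hypoxia targets among the members 3 were tested and 0 called. Bnip3l, a receptor for mitophagy, was at 54.3 and 63.1 RPKM in trNK-V and 38.1 and 28.8 in trNK-T (log2 -0.81, adjusted p = 0.0244), below the fold limit. Its relative Bnip3 had 9.44 and 8.84 against 11.3 and 10.4 (log2 0.25) and the mitochondrial protein Higd1a 36.7 and 40.0 against 51.5 and 48.8 (log2 0.39), and neither was called.

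**Figure D2:**
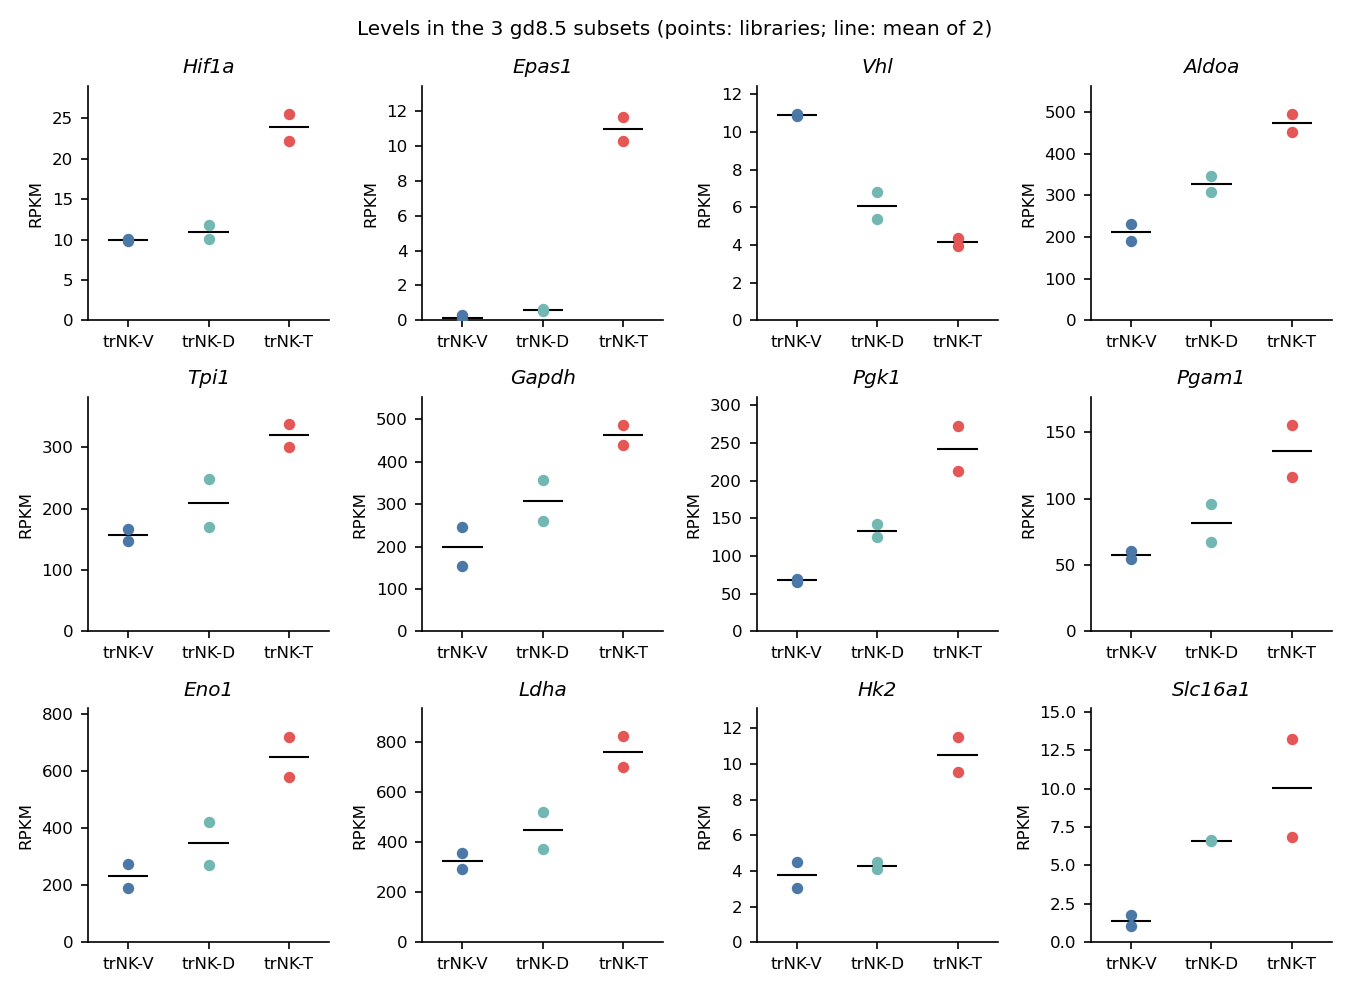
RPKM of 12 members in trNK-V, trNK-D and trNK-T cells of gd8.5, with a point per library and a line at the mean of 2. Pgk1 ran from 66.2 RPKM in trNK-V to 273 RPKM in trNK-T, Vhl from 11.0 down to 3.97 RPKM, and Epas1 was above 1 RPKM in trNK-T alone.

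trNK-D lay between the other subsets for most of these enzymes, but edgeR called 0 of the 18 members against trNK-V, where 0.32% of all genes were called. Of these members 6 had an unadjusted p below 0.05, as did 20.1% of all genes. DESeq2 and limma-voom also called 0, while a fit with no filter on low counts called some members, whose number is given at the end. In edgeR's main fit Pgk1 had the smallest adjusted p (log2 1.00, adjusted p = 0.0973), and Aldoa followed at log2 0.64 (adjusted p = 0.140). The count was 0 without any 1 library too, trNK-D replicate 2 with its plasma cell RNA included.

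Of all 35 members, 19 were higher and 4 lower in both trNK-T libraries than in both trNK-V libraries, against 21.2% higher and 29.0% lower of 17507 detected genes. The calls of trNK-T against trNK-V rested in part on single libraries: 4 members were called without trNK-V replicate 2, and 4 without trNK-T replicate 2. In both cases Hif1a, Epas1, Aldoa and Pgk1 were the ones called, and the adjusted p of the other 6 lay between 0.0529 and 0.114.

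Other transcripts moved along the same gate. Summed over Mki67, Top2a, Cdk1, Birc5, Ube2c and Rrm2, dividing-cell genes were at 88.1 and 120 RPKM in trNK-V, 55.9 and 294 in trNK-D and 201 and 307 in trNK-T. The 4 NK markers summed to 1379 and 1388 RPKM in trNK-V and 799 and 644 in trNK-T. The 7 macrophage markers summed to 12.9 and 99.0 RPKM in trNK-V, where 2 and 0 of them were at 0, to 33.9 and 51.9 in trNK-D, and to 4.23 and 2.64 in trNK-T, where Csf1r was at 0 in both libraries. The 6 neutrophil and monocyte markers summed to 89.3 and 332 RPKM in trNK-V, 451 and 420 in trNK-D, and 150 and 59.0 in trNK-T. Nearly all of this came from Ly6c2 and Lyz2, with S100a9 and Retnlg at 0 in all 6 libraries. The cNK marker list summed to 1496 and 2425 RPKM in trNK-V, 923 and 930 in trNK-D and 313 and 357 in trNK-T, nearly all of it from the Ly49 receptor genes (a family of close copies whose reads may be shared) Klra8 (769 and 1256 in trNK-V, 238 and 244 in trNK-T) and Klra4 (684 and 1130, 68.6 and 110), while Itgam, Itga2, S1pr5 and Klf2 were each at most 6.97 RPKM in the 6 libraries. The 4 dendritic markers summed to 70.7 and 2.32, 147 and 0.148, and 0 and 0.165 RPKM in the same order. Between trNK-V and trNK-T, ILC1 markers went from 14.4 and 50.1 to 0.399 and 0.229 RPKM, stromal markers from 51.9 and 4.60 to 0.513 and 0.688, and the epithelial list, which was Epcam alone in trNK-T, from 11.1 and 6.54 to 53.3 and 58.0. Over the same step the endothelial list went from 20.96 and 19.56 to 50.1 and 50.8 RPKM, mast cell markers from 0.371 and 1.93 to 5.55 and 5.93, T cell markers from 531 and 572 to 381 and 237, γδ T cell markers from 612 and 374 to 262 and 224, B cell markers from 253 and 299 to 189 and 169, and plasma cell markers from 13.9 and 20.5 to 2.92 and 2.58. Their part in the result was not tested, and in bulk samples fewer cells of a type and less RNA per cell cannot be told apart.

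The gestation libraries asked whether the members change with pregnancy in trNK cells as a whole. At gd6.5 against virgin, 17 members were tested and Eno1 and Pkm were called higher, where 6.17% of all 4504 genes tested were called. Eno1 measured 208 and 290 RPKM in virgin mice, 686 and 605 in mice at gd6.5, then 449 and 477 in those at gd8.5 (log2 1.29 at gd6.5, SE 0.206, adjusted p = 0.0302). Pkm measured 156 and 154 RPKM, 382 and 297, and 192 and 199 in the same order (log2 1.05 at gd6.5, SE 0.181, adjusted p = 0.0311). In both genes gd6.5 was highest and no groups overlapped.

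Pgam1 lay just under the fold limit at gd6.5 (log2 1.00, adjusted p = 0.0311), with 86.6 and 72.8 RPKM in virgin mice and 182 and 156 at gd6.5. Ldha gave 365 and 549 RPKM in virgin mice, 1039 and 763 for the gd6.5 mice, and 534 and 508 for the gd8.5 mice (log2 0.90 at gd6.5, adjusted p = 0.0703). Pfkl measured 9.95 and 6.80 RPKM against 19.8 and 16.4 (log2 1.03, adjusted p = 0.0524), and Slc16a1 3.26 and 8.32 against 13.8 and 15.9 (log2 1.27, adjusted p = 0.129), having passed the filter through gd6.5 alone. Bnip3l lay on the other side, at 58.6 and 41.4 RPKM in virgin mice and 19.8 and 34.8 at gd6.5 (log2 -0.96, adjusted p = 0.0894). None of these 5 was called. The median log2 fold change was 0.55 over the 17 members and -0.02 over all genes tested. Dividing-cell genes summed to 98.4 and 158 RPKM in virgin mice, 332 and 228 in the gd6.5 libraries, then 186 and 163 in those of gd8.5, and the 4 NK markers to 1241 and 1222, 710 and 741, and 922 and 933. Erythrocyte genes summed to 224 RPKM in virgin replicate 2 and 844 in gd8.5 replicate 2, against at most 12.8 in the other 4 libraries. From virgin to gd6.5, neutrophil and monocyte markers went from 72.3 and 37.9 to 13.0 and 3.60 RPKM, mostly through Ly6c2 (68.5 and 33.4 to 11.5 and 2.54). Over the same step T cell markers went from 599 and 468 to 421 and 280, γδ T cell markers from 568 and 371 to 243 and 224, mast cell markers from 7.22 and 12.6 to 2.15 and 0.880, plasma cell markers from 36.9 and 0.517 to 0.227 and 0, the endothelial list from 13.8 and 29.3 to 45.1 and 36.9, and the epithelial list from 2.96 and 29.8 to 35.2 and 32.3. Their part in the result was not tested.

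Hif1a could not be placed along pregnancy, since the virgin libraries gave 5.49 and 22.2 RPKM, on both sides of the 16.8 to 21.4 RPKM of the 4 libraries of pregnant mice. Hk2 followed the same split, at 0.650 RPKM in virgin replicate 1 and 6.10 to 8.78 RPKM in the other 5 libraries. Aldoc, a minor aldolase, was at 0.0134 RPKM in virgin replicate 1 and 3.33 to 7.28 RPKM in the rest. Epas1 ran from 0 to 3.27 RPKM in all 6 libraries, and the highest value, at gd6.5 replicate 1, was under the trNK-T values.

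At gd8.5 some enzymes lay lower than at gd6.5 again, for example Pkm (log2 -0.77, adjusted p = 0.103) and Ldha (log2 -0.77, adjusted p = 0.147). Others overlapped, such as Aldoa (508 and 354 RPKM at gd6.5, 390 and 430 at gd8.5) and Pgk1 (215 and 165, 174 and 185). For gd8.5 against gd6.5 edgeR called 0 members, where 0% of all genes were called, and 4 had an unadjusted p below 0.05, as did 23.8% of all genes. At gd8.5 against virgin it called 0 members, where 0.422% of all genes were called, and 1 had an unadjusted p below 0.05, as did 14.2% of all genes. DESeq2 and limma-voom called 0 in both comparisons. At gd6.5 against virgin, 0 members were called with the replicate number as a block, with edgeR's filterByExpr or in a fit of the compared libraries alone. DESeq2 and a fit with no filter on low counts called more members there than edgeR did. The gd6.5 calls depended on each library: 4 members were called without virgin replicate 1, 7 without virgin replicate 2, and 0 without any 1 of the 4 gd6.5 and gd8.5 libraries. Without virgin replicate 2, 2 members were called at gd8.5 against virgin.

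**Figure D3:**
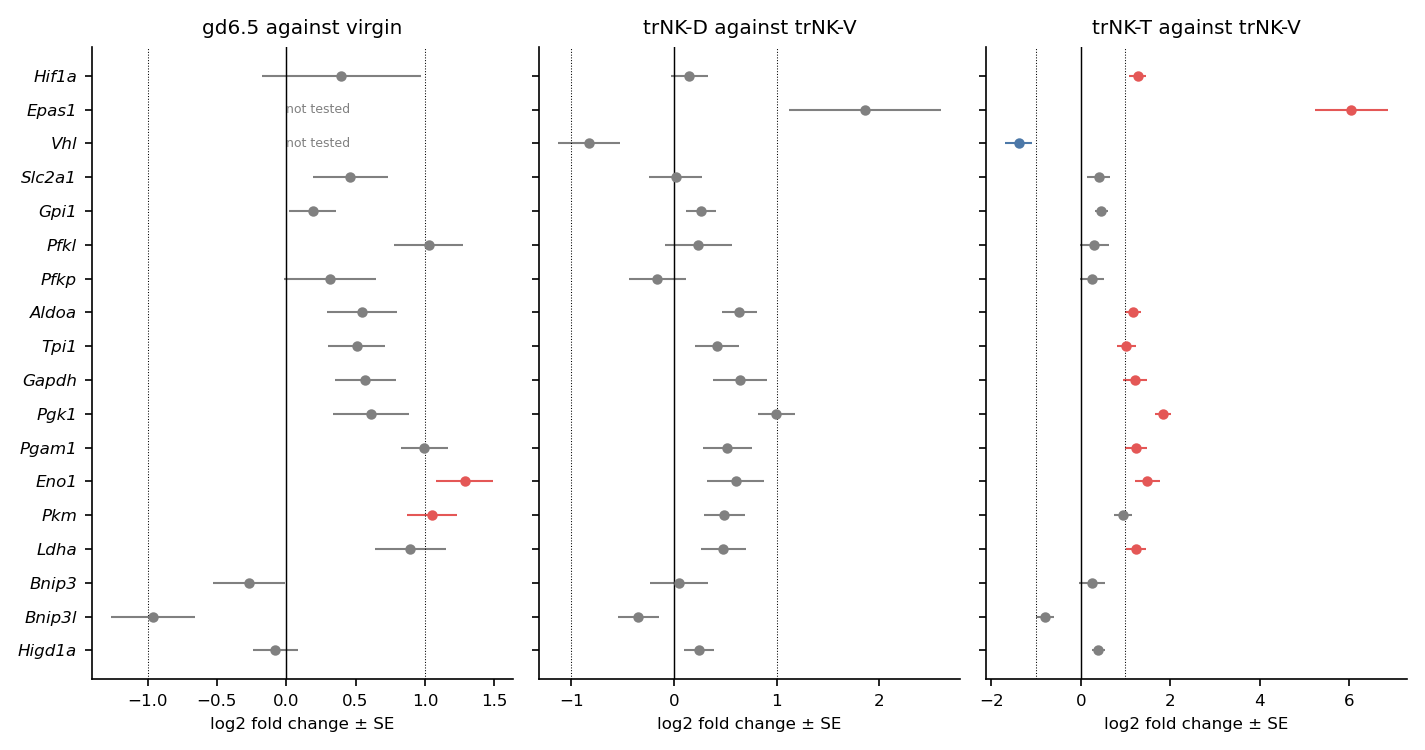
Log2 fold changes with their standard errors for the members tested in gd6.5 against virgin, trNK-D against trNK-V and trNK-T against trNK-V (x axes differ). Red marks members called higher, blue lower and grey not called, dotted lines mark a fold change of 2, and Epas1 in trNK-T stands farthest out at 6.05.

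The culture with Stattic asked whether IL-21 and STAT3 change the members. IL-21 is a cytokine whose receptor signals through STAT3. Against culture without IL-21, edgeR and limma-voom called 0 of 16 tested members, DESeq2 called 1, where 0.289% of all 4158 genes tested were called. Of the members 5 had an unadjusted p below 0.05, as did 9.19% of all genes. Hif1a was nearest to a call, at 6.55 and 6.26 RPKM without IL-21, 16.2 and 22.01 with it and 7.96 and 7.09 with IL-21 and Stattic, without overlap of the IL-21 libraries with the others. Its log2 differences were 1.76 for IL-21 (adjusted p = 0.0921) and -1.23 for Stattic added to IL-21 (adjusted p = 0.112), and it passed the filter through the IL-21 group alone. The IL-21 response gene Socs3 gave 1.44 and 6.66 RPKM without IL-21, 4.51 and 28.2 with it and 2.19 and 3.76 with Stattic, so that the IL-21 libraries overlapped the control. The 8 activation and effector genes named above summed to 5177.5 and 3592 RPKM without IL-21, 53070 and 48842 with it and 14753 and 16558 with Stattic, without overlap between groups. The study reported Prf1, Gzmb and Spp1 among them as raised by IL-21 through STAT3 in this culture, so their sum is no independent check.

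P4ha1, the alpha subunit of collagen prolyl 4-hydroxylase, was the 1 member called with Stattic. It measured 6.10 and 4.36 RPKM without IL-21, 4.61 and 8.60 with IL-21, and 43.2 and 35.7 with IL-21 and Stattic. The first pair of groups overlapped, and the Stattic libraries stood apart from both. The log2 fold change was 2.69 against IL-21 (SE 0.423, adjusted p = 0.0220), where 2.96% of all genes were called, and 3.20 against no IL-21 (SE 0.432, adjusted p = 0.0101), where 4.74% were called. P4ha1 passed the filter through the Stattic group alone. With edgeR's filterByExpr no member was called in either Stattic comparison, and with the replicate number as a block none was called against IL-21. DESeq2 called more members against IL-21, as did a fit with no filter on low counts against no IL-21. The call against IL-21 was lost without IL-21 replicate 1 or either Stattic library (adjusted p from 0.0749 to 0.104), and that against no IL-21 without either control library (0.0519 and 0.0630). Markers moved with these treatments. The 4 NK markers summed to 1099 and 966 RPKM without IL-21, 313 and 367 with IL-21 and 228 and 234 with Stattic, and dividing-cell genes to 201 and 125, 157 and 149, and 76.0 and 56.5. γδ T cell markers summed to 710.1 and 701, 324 and 249, and 157 and 255 RPKM, and neutrophil and monocyte markers to 23.8 and 25.8, 7.22 and 25.4, and 48.2 and 57.5. The neutrophil and monocyte sum was nearly all Ly6c2, with S100a8, S100a9, Retnlg and Lyz2 at 0 in every library of this culture. In the same order T cell markers summed to 571 and 509, 322 and 441, and 236 and 287 RPKM. B cell markers summed to 136 and 257, 46.4 and 120, and 65.3 and 53.8 RPKM. Their part in the differences of P4ha1 and Hif1a was not tested.

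In this culture Ldha gave 123 and 191 RPKM without IL-21, 197 and 397 with it and 149 and 86.2 with Stattic, and Pgk1 119 and 102, 128 and 157, and 97.7 and 111. Slc2a1 ranged from 0.581 RPKM in Stattic replicate 2 to 16.8 in IL-21 replicate 2. Replicates within these groups were far apart, for example Pkm at 125 and 381 RPKM with IL-21. Epas1 was at 0 counts in 5 of the 6 libraries and at 0.0197 RPKM in the other. The scaling by TMM moved the median of all genes by log2 0.19 for IL-21, 0.10 for Stattic against IL-21 and 0.29 for Stattic against no IL-21, relative to ratios of RPKM.

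The time course asked how the members change from 0 to 72 h in IL-15, with and without IL-21. Only 11 members passed the filter: Aldoa, Tpi1, Gapdh, Pgk1, Pgam1, Eno1, Pkm, Ldha, Bnip3, Bnip3l and Higd1a. The 8 glycolytic enzymes named above summed to 700.3 and 729 RPKM at 0 h without IL-21 and to 116 and 87.6 at 72 h, where their share of the members' summed RPKM went from 71.4% and 71.7% to 26.1% and 23.7%. With IL-21 the replicates were far apart, at 354 and 891 RPKM at 0 h and 396 and 107 at 72 h, which overlapped. Higd1a was the highest member in all 4 libraries of 72 h, at 189 and 179 RPKM without IL-21, within its range of 133 to 240 RPKM over all 16 libraries.

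Pgk1 gave 113 and 128 RPKM at 0 h without IL-21, 124 and 118 at 6 h, 62.4 and 76.6 at 24 h and 11.9 and 15.8 at 72 h. From 24 to 72 h it fell by 1.95 on the log2 scale (adjusted p = 0.000456), and Gapdh, at 47.3 and 53.9 against 11.2 and 7.56 RPKM, fell by 2.10 (adjusted p = 0.0399). These were the 2 members called in that step, where 14.8% of all 3503 genes tested were called. limma-voom called 1 of them, Pgk1, and the Gapdh call was also lost without any 1 of 9 libraries, while 5 members were called without either 72 h library with IL-21. Ldha was at 71.2 and 91.3 RPKM at 24 h and 26.9 and 29.3 at 72 h, a log2 difference of -1.17 that missed the threshold (adjusted p = 0.177). TMM scaling moved the median of all genes by log2 0.32 in this step and 0.36 in the same step with IL-21, and the log2 values are given after that scaling.

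With IL-21, the step from 24 to 72 h called 4 members, again among 14.8% of all genes. Pgk1 went from 118 and 96.6 to 38.4 and 33.9 RPKM (log2 -1.19, adjusted p = 0.00831), and Eno1 from 92.8 and 59.4 to 21.9 and 4.88 (log2 -2.25, adjusted p = 0.0280). The mitophagy receptors went up instead: Bnip3 from 12.01 and 12.05 to 23.6 and 15.7 RPKM (log2 1.05, adjusted p = 0.0369), and Bnip3l from 29.8 and 25.7 to 55.6 and 34.9 (log2 1.05, adjusted p = 0.00372). In the same step dividing-cell genes went from 566 and 509 to 91.9 and 44.9 RPKM, and the cNK list from 1859 and 2215 to 4357 and 5706.5. The mitochondrial share went from 2.28% and 2.80% to 4.37% and 5.73%. Their part in the result was not tested. Over the 16 fits that leave out 1 library each, the Bnip3 call was lost in 12 (adjusted p up to 0.190), the Eno1 call in 3, the Bnip3l call in 2 and the Pgk1 call in 1. A fit of the 4 compared libraries alone called 0 members in this step, with adjusted p from 0.0713 to 0.136 for these 4, and 0 in the same step without IL-21, where Pgk1 and Gapdh had 0.0846 and 0.0681. Without either 24 h library with IL-21, 1 member was called, and without 72 h replicate 2 with IL-21, 2 were.

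Bnip3l was the 1 member called with IL-21 at the 6 h time point. At 0 h it was at 38.2 and 37.9 RPKM without and 25.8 and 39.5 with IL-21, which overlapped. At 6 h it was at 58.4 and 47.4 RPKM without and 16.8 and 17.7 with IL-21 (log2 -1.65, SE 0.191, adjusted p = 0.00178), where 1.97% of all genes were called. At 24 h it was at 54.5 and 52.4 against 29.8 and 25.7 RPKM (log2 -1.05, adjusted p = 0.0203), again the 1 member called, where 1.66% of all genes were called, and at 72 h at 77.8 and 67.2 against 55.6 and 34.9 (log2 -0.78, adjusted p = 0.0250), under the fold limit. The groups did not overlap at 6, 24 or 72 h. The 4 NK markers were lower with IL-21 too, at 1316 and 1253 RPKM without and 577 and 617 with it at 6 h, and 1503 and 1396 against 898 and 866 at 24 h. At 6 h, T cell markers went from 556 and 546 RPKM without to 449 and 423 with IL-21, and γδ T cell markers from 447 and 479 to 266 and 244. B cell markers went from 246 and 166 to 108 and 119, the cNK list from 2217 and 2438 to 2022 and 1742, and ILC1 markers up from 29.1 and 19.9 to 38.2 and 48.6. These lists except ILC1 were lower at 24 h too. The mitochondrial share of counts was 3.57% and 3.78% without and 2.54% and 1.90% with IL-21 at 6 h, and 4.76% and 4.58% against 2.28% and 2.80% at 24 h. Their part in the result was not tested. TMM scaling moved the median of all genes by log2 -0.10 for IL-21 at 24 h and -0.17 from 0 to 6 h with IL-21. From 0 to 6 h with IL-21 Bnip3l fell by 1.08 on the log2 scale (adjusted p = 0.0179), the 1 member called where 2.68% of all genes were. The 6 h call held without any 1 library, the 24 h call was lost without any 1 of the 4 libraries of 24 h, and the call from 0 to 6 h was lost without 0 h replicate 2 or either 6 h library with IL-21.

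At 72 h, Pgk1 was the 1 member called with IL-21, at 11.9 and 15.8 RPKM without and 38.4 and 33.9 with IL-21 (log2 1.29, SE 0.251, adjusted p = 0.00990), where 8.08% of all genes were called. The call held without any 1 library, and was lost in a fit of the 4 libraries of 72 h alone (log2 1.28, adjusted p = 0.788). The count was 2 without 72 h replicate 1 and 4 without 72 h replicate 2 with IL-21, a library in which Gapdh, Ldha and Aldoa were at 10.8, 16.4 and 19.3 RPKM against 68.1, 97.4 and 106 in its replicate. The median log2 fold change was 0.89 for the 11 members and 0.05 for all genes. Below the filter, Slc16a1 showed the clearest split: it was at 3.03 and 4.64 RPKM at 0 h without IL-21, 2.67 and 2.37 at 6 h, 0.574 and 0.790 at 24 h and 0 counts in both libraries at 72 h, but at 0.729 and 1.54 RPKM at 72 h with IL-21. The 313 counts of Slc16a1 in the 2 libraries with IL-21 were at least 112-fold higher in CPM (counts scaled to library size) than the floor of 3 counts over both libraries without it, and those at 24 h without IL-21 at least 72-fold higher. These bounds cover counting error only. In the 72 h libraries without IL-21, 8 and 10 members were at 0 counts. Vhl (3.64 and 0 RPKM), Slc2a1 (2.90 and 0) and Pfkfb3 (0 and 1.04) had counts in 1 of these libraries only. The fold itself is therefore uncertain. Pfkp, the platelet-type phosphofructokinase, was at 0.303 and 0.0806 against 1.16 and 1.57 RPKM (log2 2.85 with no filter, adjusted p = 0.0273).

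**Figure D4:**
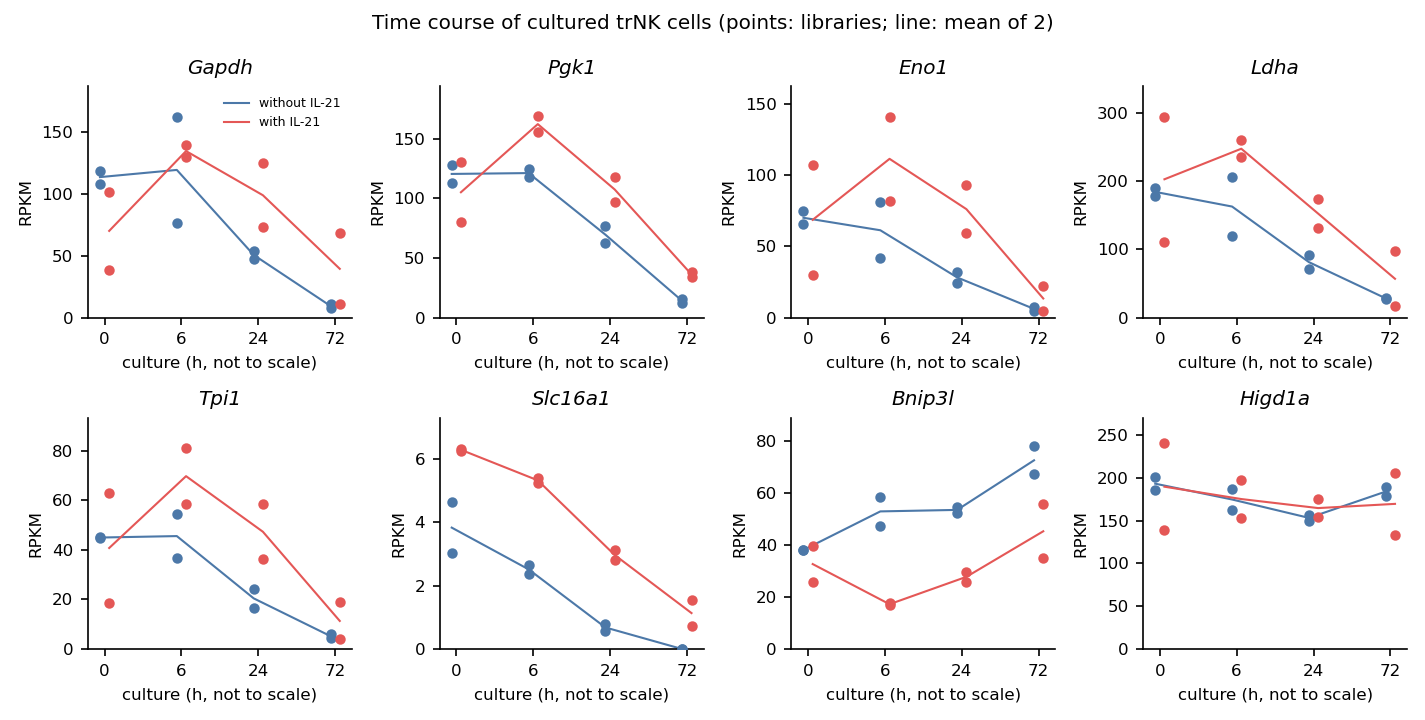
RPKM of 8 members in the time course, with a point per library, a line at the mean of 2, blue without and red with IL-21, and hours not to scale. Pgk1 ended at 11.9 and 15.8 RPKM without IL-21 and 38.4 and 33.9 with it, and Bnip3l lay lower with IL-21 from 6 h on.

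The other steps called 0 members with edgeR, DESeq2 and limma-voom. For IL-21 at 0 h, 0% of all genes were called, and 1 member and 3.14% of all genes had an unadjusted p below 0.05. From 0 to 6 h without IL-21, 0% of genes were called, and 0 members and 3.03% of genes had such a p. From 6 to 24 h without IL-21 0.0856% were called, with 1 member and 5.62% of genes at such a p, and with IL-21 0.0285%, with 1 member and 6.82%. For the difference of the IL-21 effect between time points, edgeR called 0 members, so a change of the effect on Bnip3l or Pgk1 between times was not shown, and 0%, 4.17% and 4.22% of all genes were called for 24 against 6 h, 72 against 6 h and 72 against 24 h. An unadjusted p below 0.05 was found for 1, 3 and 0 members in the same order, and for 1.97%, 18.5% and 19.3% of all genes. DESeq2 called 1 member for 72 against 6 h and 0 for the other differences, and limma-voom called 0 in each. For 72 against 6 h, 1 was called without 72 h replicate 2 or without 72 h replicate 2 with IL-21. Epas1 was at 0 counts in 15 of the 16 libraries, and Hif1a ranged from 0.985 to 7.41 RPKM, below the filter in all groups. The mitochondrial share of counts was 8.44% and 11.8% at 72 h without IL-21 and 1.90% to 5.73% in the other 14 libraries, and dividing-cell genes summed to 13.0 and 0.557 RPKM there against at least 44.9 elsewhere. Their part in the result was not tested.

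The single cells asked which cells carry the members. Both files hold the same 15175 cells with different genes and no tag for virgin or gd8.5, so the cells are 1 sample and nothing was tested. A filter of over 200 and under 2500 genes and a mitochondrial share under 10% kept 8907 cells, whereas the UMI limits that the methods state keep 4338. The upper gene limit also dropped deep cells, 4169 in number, and without it 13076 cells were kept. Cells were clustered without the members, and the 18 clusters were named from marker lists. A cluster in which no other list stood out was called NK-like if at least 3 of the 4 NK markers were detected, so that this name is a default within the NK1.1+NKp46+ gate. The 4 markers summed to 733 CPM in cluster 4 and 966 in cluster 7, below the 1952 of cluster 0 and above the 380 of macrophage-like cluster 2. Levels are CPM, here a gene's UMIs scaled to all UMIs of a cluster, with 95% Poisson intervals that cover counting error only. UMI counts are not per length, so they are compared between clusters and not between genes. Ambient RNA and doublets were not removed.

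The members summed to 5306 CPM (5270 to 5342) in NK-like cells, 2922 (2845 to 3001) in cNK-like cells, whose leading genes included S1pr5 and Itga2, 2682 (2627 to 2737) in macrophage-like, 3652 (3532 to 3776) in neutrophil- and monocyte-like and 3468 (3301 to 3641) in dendritic-like cells. Unnamed cells, most of them in cluster 1, summed to 3087 CPM (3031 to 3144) and are not in the NK-like sum. Cluster 1 held 1293 cells and stayed unnamed because Cxcr6, of the ILC1 list, was among its leading genes. Its 4 NK markers summed to 2078 CPM, above each NK-like cluster. Under the UMI limits of the methods, which drop more of the deep cells than the gene limits do, the sums were 3208 CPM in NK-like and 2766 in macrophage-like cells. The NK-like clusters themselves were spread widely. The highest sum, 7382 CPM, was in cluster 4, whose 642 cells were led by Mt2, Scin, Tmsb15a and Ctsg, followed by 6093 CPM in cluster 6, led by cell division genes, 5943 CPM in cluster 7, led by Gcsh, 4283 CPM in cluster 5, led by Gzmf, Gzmc, Gzme and Gzmd, 3573 CPM in cluster 0, led by Cd7 and Xcl1, and 2595 CPM in cluster 15, led by interferon response genes. Of these 6 clusters, the intervals of clusters 6 and 7 overlapped and the others did not. Clusters 4 to 7 had median depths of 4910 to 5665 UMIs per cell and cluster 0 of 2667, and the part of depth in these levels was not tested.

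Cluster 4 was the highest of the 18 clusters in Gpi1, Pfkl, Tpi1, Gapdh, Pgk1, Eno1, Pkm and Ldha, while Pgam1 was highest in cluster 6. Pgk1 was at 733 CPM there, 570 in cluster 6 and 587 in cluster 7, and at 393 in cluster 5, 275 in cluster 0 and 170 in cNK-like cells. Ldha was at 984 CPM in cluster 4, 422 in cluster 0 and 329 in cNK-like cells, and Eno1 at 777, 320 and 334 CPM. Hif1a differed less, at 134 CPM (122 to 147) in cluster 4, 140 in cluster 5 and 137 in cluster 7, against 77.1 (68.7 to 86.3) in cluster 0 and 54.6 in cNK-like cells.

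Epas1 was spread unevenly over the NK-like clusters. With the stated UMI limits its highest cluster had 104 CPM and the next 44.4. Under the gene limits used here it was at 253 CPM (236 to 270) in cluster 4, 70.2 in cluster 7, 58.3 in cluster 6, 55.1 in cluster 5, and 10.3 (7.42 to 14.02) in cluster 0, which was the level of macrophage-like cells (10.3, 7.14 to 14.3). At least 1 Epas1 UMI was found in 63.7% of cluster 4 cells, 23.6% of cluster 7, 3.05% of cluster 0 and 2.72% of macrophage-like cells, whose median depth was 2555 UMIs. After thinning each cell to 1000 UMIs the shares were 24.1%, 7.10%, 1.45% and 0.841%, with 70 cells of cluster 0 and 142 macrophage-like cells too shallow to be used. The share in cluster 0 is therefore near that of cells used as background.

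**Figure D5:**
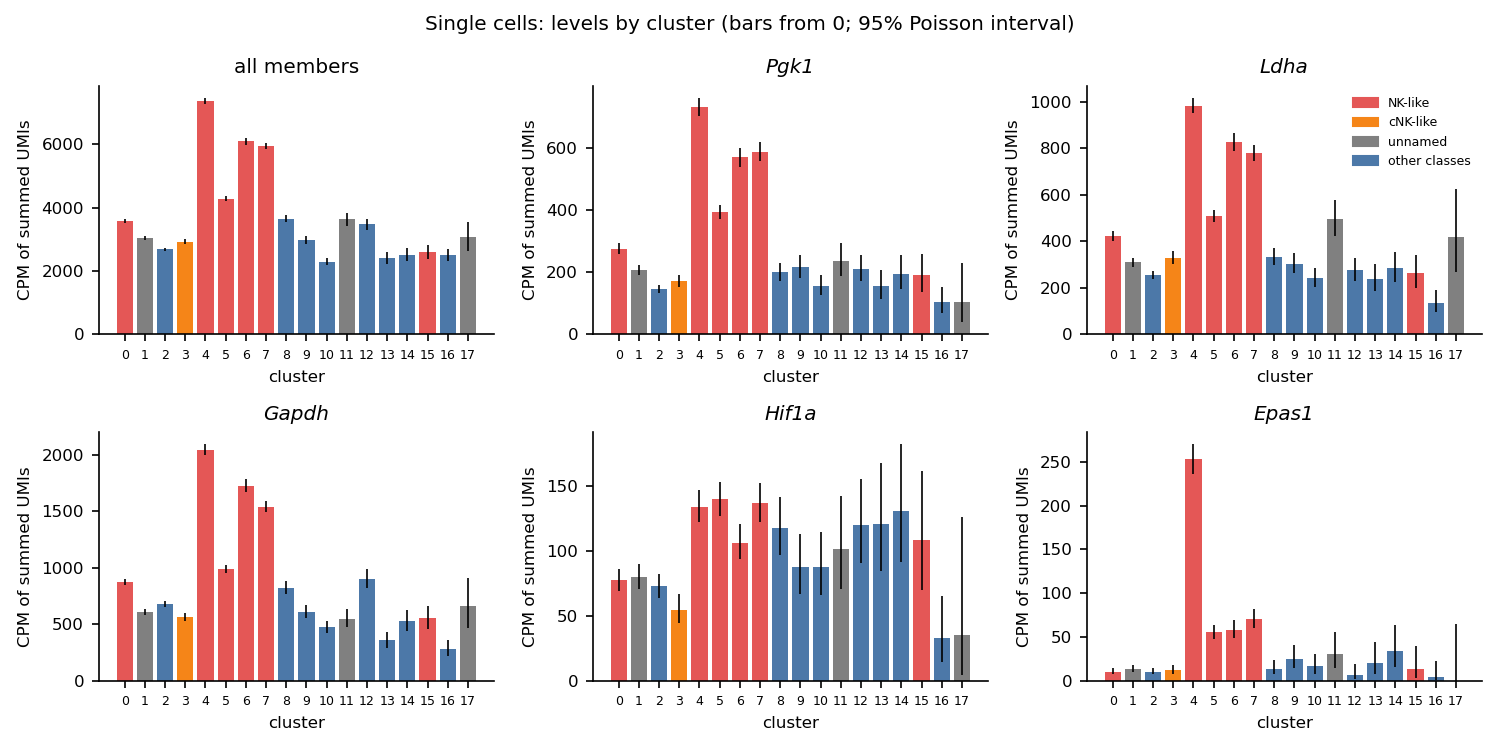
Levels in CPM of summed UMIs by single-cell cluster, bars from 0 with 95% Poisson intervals, for the sum of the members and for Pgk1, Ldha, Gapdh, Hif1a and Epas1; red bars are NK-like, orange cNK-like, grey unnamed and blue other classes. Cluster 4 is highest in the sum (7382 CPM), Pgk1 (733 CPM) and Epas1 (253 CPM), but not in Hif1a.

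Some members had their highest level per UMI in other cells, although NK-like cells, the most numerous, held more UMIs of Bnip3l, Hk2 and Pdk1 than any other named class. Bnip3l was at 1024 CPM in erythrocyte-like cells and at 144 or below in every other cluster. Hk2 was at 139 CPM in dendritic-like, 62.4 in macrophage-like and 61.0 in neutrophil- and monocyte-like cells, against at most 28.7 in NK-like clusters, and Pfkfb3 and Pfkfb4 had their highest values in the same 3 classes. P4ha1 was highest in stromal-like cluster 14, at 138 CPM, and at most 20.6 CPM in the NK-like clusters. Pdk1 was at 136 CPM in T-like cells and at most 31.7 CPM in NK-like clusters, and Ldhb, at 53.7 and 41.1 CPM, in stromal-like cells.

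Genes of neighbouring pathways were read beside the members. In trNK-T against trNK-V, 3 of the 9 tested among 33 other hypoxia targets were called, all higher, where 8.05% of all genes were called higher: Ero1l, an oxidase of the endoplasmic reticulum, at 24.0 and 27.3 RPKM against 5.85 and 5.32 (log2 2.20, adjusted p = 0.00176), Hilpda, a lipid droplet protein, at 572 and 444 against 226 and 109 (log2 1.61, adjusted p = 0.0146), and the cytokine Mif at 772 and 695 against 347 and 275 (log2 1.24, adjusted p = 0.00658). Of 7 tested genes of the pentose phosphate pathway, the glycolytic branch that makes NADPH and ribose, G6pdx (log2 1.18, adjusted p = 0.0455) and Tkt (log2 1.13, adjusted p = 0.00901) were called higher. Of 8 tested genes that pass pyruvate to mitochondria, Cs, the citrate synthase, was called higher (log2 1.11, adjusted p = 0.00651). None of 3 tested other glycolysis genes and none of 4 tested HIF pathway genes was called.

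At gd6.5 against virgin, the sensor Egln2 was called higher (log2 1.24, adjusted p = 0.0453) and Cited2, a competitor of HIF-1α for its coactivator, lower (log2 -2.92, adjusted p = 0.0311), out of 6 tested HIF pathway genes, where 6.17% of all genes were called. Egln2 passed the filter through gd6.5 alone and Cited2 through the virgin libraries alone, so the filter favoured a difference in both and their calls are no separate support. With Stattic against IL-21, Plod2, a collagen lysyl hydroxylase, was at 21.1 and 16.8 RPKM against 2.60 and 3.36 (log2 2.78, adjusted p = 0.0220), and Jmjd6, another 2-oxoglutarate-dependent oxygenase, at 47.5 and 35.8 against 10.9 and 13.6 (log2 1.87, adjusted p = 0.0394). These were the called genes among 12 tested other hypoxia targets, where 2.96% of all genes were called, and Plod2, like P4ha1, passed the filter through the Stattic group alone. Against no IL-21, 4.74% of all genes were called. Higher with Stattic there were Plod2 (log2 3.15, adjusted p = 0.0114), Jmjd6 (log2 2.06, adjusted p = 0.0188) and G6pdx (log2 2.54, adjusted p = 0.0170). Pdk3, a kinase that holds back pyruvate dehydrogenase, was at 38.1 and 17.6 RPKM with and 3.89 and 9.77 without IL-21 at 72 h (log2 1.83, adjusted p = 0.0355), the 1 called of 6 tested genes that pass pyruvate to mitochondria, where 8.08% of all genes were called. From 24 to 72 h, where 14.8% of all genes were called in each arm, Pdk3 fell without IL-21 (log2 -1.85, adjusted p = 0.0234) and Cs with it (log2 -1.30, adjusted p = 0.0277). Ero1l was called higher in trNK-T than in trNK-D (log2 1.13, adjusted p = 0.0456), where 1.75% of all genes were called. Hilpda was called higher with IL-21 at 6 h (log2 1.47, adjusted p = 0.0443), where 1.97% were.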

How the data were processed

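The authors mapped the bulk reads with HISAT2 2.1.0 to mm10 and deposited counts per gene beside RPKM values. The submitters' notes name featureCounts of Subread and the methods RSEM, so the counter is uncertain. The deposited single-cell UMI counts were made with the BD Rhapsody pipeline, as the methods state. ATAC-seq samples were not analysed here. Virgin replicate 1 lists other genes and, for 3 members, other exon lengths than the rest.

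Counts of the 54353 shared genes entered edgeR 4.0.16 (R 4.3.3) with TMM factors, each experiment in 1 fit of all its groups, over genes above 10 RPKM in both libraries of any group. A call required adjusted p below 0.05 and a fold above 2. DESeq2 1.42.0, limma 3.58.1 with voom, other filters, a replicate block, fits of the compared libraries alone and fits without each library were alternatives. Replicates of a group all differed by more than sampling noise. The RPKM values printed were computed from the deposited counts of the shared genes, with the same exon lengths for every library. The printed RPKM and CPM values hold no pseudocount. Log2 fold changes of edgeR and voom carry the small default counts that these tools add. The plot of levels, the correlations of replicate deviations, the clustering of cells and the ranking of leading genes also used an added constant.

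Single cells were kept with over 200 and under 2500 genes and under 10% mitochondrial counts, and clustered with leidenalg 0.10.2 (resolution 0.8, 20 components, 2000 variable genes) without the members, neighbouring pathway genes and stage genes. A cluster took the name of a marker list at least 3-fold above its level over all cells and above the NK list, and otherwise NK-like, or cNK-like with 3 cNK markers among its leading 10 genes. It stayed unnamed where its leading genes belonged to another list, its depth was low or under 3 markers were detected. No doublet caller was used.

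The members and lists were chosen with earlier results of these data known. All 35 members are described, and of the neighbouring pathways at most the 3 called genes with the largest change per list and comparison. Socs3 was read as a check of the IL-21 response.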

Additional observations from a re-analysis of the deposited data

Results flagged for a closer look

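Among the members and neighbouring pathway genes above the filter on low values, 1 gene differed in its IL-21 effect between time points by a test of the difference itself, where 4.17% of all genes tested were called for 72 against 6 h. Hilpda, a lipid droplet protein and hypoxia target, gave 39.5 and 59.4 RPKM at 6 h without IL-21 and 161 and 120 with it, and 64.5 and 75.6 at 72 h without IL-21 and 55.2 and 45.5 with it. The IL-21 effect at 72 h minus the effect at 6 h was -2.04 on the log2 scale (SE 0.459, adjusted p = 0.0294 in edgeR's quasi-likelihood test), so the gene was higher with IL-21 in both libraries at 6 h and lower in both at 72 h. Groups of 2 libraries could not be tested for a library that stands apart from its group. Below that filter, a fit with no filter also called Slc16a1 for the IL-21 effect at 72 h against 6 h and 24 h (adjusted p = 0.00239 and 0.00467), and its fold is not given since both libraries of 72 h without IL-21 were at 0 counts.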

How the results depend on the processing

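With 2 libraries a group, many counts of called members moved with the settings. For trNK-T against trNK-V, 10 members were called with DESeq2, limma-voom and the replicate block, and 4 to 11 without 1 library. Where a count moved by over 1.5 times, it went as follows, and the cause was not tested. DESeq2 called 4 members at gd6.5 against virgin, 1 for IL-21 in the inhibitor culture, 2 for Stattic against IL-21, 2 for IL-21 at 6 h and 2 at 72 h, 4 from 24 to 72 h without IL-21 and 1 for the IL-21 effect at 72 h minus 6 h. limma-voom called 1 from 24 to 72 h without IL-21. With no fold limit 2 were called for IL-21 at 72 h. With edgeR's filterByExpr the counts were 0 at gd6.5 against virgin, 0 for trNK-T against trNK-D, 0 for Stattic against IL-21 and 0 against no IL-21, 0 for IL-21 at 24 h and 3 at 72 h, 4 from 24 to 72 h without and 1 with IL-21, 0 from 0 to 6 h with IL-21, and 1 for each difference of the IL-21 effect at 72 h. With no filter they were 6 at gd6.5 against virgin, 3 for trNK-D against trNK-V, 1 for IL-21 in the inhibitor culture, 2 for Stattic against no IL-21, 6 for IL-21 at 72 h, 8 from 24 to 72 h without IL-21, 0 from 0 to 6 h with IL-21, 3 for the IL-21 effect at 72 h minus 6 h and 1 for 72 h minus 24 h. In fits of the compared libraries alone they were 0 at gd6.5 against virgin, 1 for trNK-T against trNK-D, 4 for IL-21 at 24 h and 0 at 72 h, 0 from 24 to 72 h with or without IL-21 and 0 from 0 to 6 h with IL-21.

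With the replicate number as a block, 0 members were called at gd6.5 against virgin (Eno1 and Pkm at adjusted p = 0.0687 and 0.0707) and 0 for Stattic against IL-21 (P4ha1 at 0.0935), and no other call of a member changed. The labels name nothing else that libraries with the same number share, and the correlations of their deviations lay on both sides of 0, from -0.431 to 0.54.

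Without 1 library, the counts ran from 0 to 7 at gd6.5 against virgin, 0 to 2 at gd8.5 against virgin, 4 to 11 for trNK-T against trNK-V, 0 to 1 for trNK-T against trNK-D and for both Stattic comparisons, 0 to 1 for IL-21 at 24 h, 1 to 4 at 72 h, 1 to 5 from 24 to 72 h without and 1 to 6 with IL-21, 0 to 1 from 0 to 6 h with IL-21 and 0 to 1 for the IL-21 effect at 72 h minus 6 h. IL-21 at 6 h gave 1 in each such fit, and the other comparisons 0. Of 438 rechecks of called members, 103 lost the call and 0 changed direction. The 438 include 26 that only dropped the fold limit from the main fit, where no call could be lost.

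In single cells, the members summed to 3208 CPM in NK-like and 2766 CPM in macrophage-like cells under the stated UMI limits, where no cNK-like value could be had. With no upper limit the sums were 6086, 3091 and 3332 CPM in NK-like, cNK-like and macrophage-like cells. At resolution 0.4 they were 4885 and 2865 CPM in NK-like and macrophage-like cells, and with 3000 variable genes 4978 CPM in NK-like cells. Depth limits the members at or near 0 counts, and 2 libraries a group limit every p-value.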
